A study of Homo sapiens with 6 samples.

Results

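BRA binding was examined at 10 genes of fibroblast growth factor (FGF) signalling, the ligand genes FGF8, FGF19, FGF4, FGF3, FGF17 and FGF2 and the feedback genes SPRY1, SPRY2, SPRY4 and DUSP6. Members were the ChIP-seq peaks of all 4 lists whose midpoint lay in a gene body or within 50 kb of it, in 8 windows on hg19, with FGF19, FGF4 and FGF3 in a shared window. The rule selected 108 of the 54994 peaks, 44 and 57 with the R&D Systems antibody in FLyA and FLyB, and 3 and 4 with the Santa Cruz antibody. H9 cells, an established human embryonic stem cell line, carried no stated genetic change and were differentiated for 36 h in chemically defined medium. All groups received 20 ng/ml FGF2 and 10 μM LY294002, a PI3 kinase inhibitor. Endoderm progenitors (FLyA) also received 100 ng/ml activin A, and mesoderm progenitors (FLyB) also received 10 ng/ml BMP4. Each medium was immunoprecipitated with either BRA antibody, giving 1 library per medium and antibody, and 1 input DNA library per medium, not analysed here. FGF2 was therefore present in every group and no group lacked it. The lists hold positions of 400 bp peaks without height, score or read count. Depth per peak is thus unknown, and the labelled cell types could not be checked against marker expression.

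FGF ligands bind receptor tyrosine kinases that activate the RAS-ERK cascade, and FGF4 and FGF8 are known for their part in cell movement and mesoderm formation in the primitive streak. Sprouty proteins (SPRY1, SPRY2 and SPRY4) restrain the cascade, and DUSP6 is a phosphatase that inactivates ERK. Both are induced by the signal that they limit. In frog embryos, BRA and an FGF ligand are known to maintain each other's expression.

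The promoters of the feedback genes are shown first, because the nearest R&D Systems peak of each medium lay 0.1 to 0.6 kb from the start of all 4 of them, and that of FGF2 is shown as a ligand promoter that holds the T-box core. Starts are known to 1 kb only, and the share of all genes with a peak so near was not computed, since no hg19 annotation was used here. Sequences are RefSeq promoters of GRCh38.p14, 5′ to 3′ on the strand of the gene, from 250 bases before to 50 bases after the most upstream start in the table. Capitals mark GGTGTG, the core of the T-box site that BRA recognises, and CCGGAA, a core recognised by ETS factors, which act downstream of FGF and ERK. A sequence without capitals holds neither. Peak coordinates are on hg19, so these windows could not be laid over the peaks.
DUSP6 (chr12:89352452-89352751, minus strand): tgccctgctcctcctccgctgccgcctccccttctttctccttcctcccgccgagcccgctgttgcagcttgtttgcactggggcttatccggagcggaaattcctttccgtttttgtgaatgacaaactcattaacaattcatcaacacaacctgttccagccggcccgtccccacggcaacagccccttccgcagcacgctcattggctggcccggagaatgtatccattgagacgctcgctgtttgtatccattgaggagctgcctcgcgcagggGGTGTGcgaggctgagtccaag
SPRY1 (chr4:123396545-123396844, plus strand): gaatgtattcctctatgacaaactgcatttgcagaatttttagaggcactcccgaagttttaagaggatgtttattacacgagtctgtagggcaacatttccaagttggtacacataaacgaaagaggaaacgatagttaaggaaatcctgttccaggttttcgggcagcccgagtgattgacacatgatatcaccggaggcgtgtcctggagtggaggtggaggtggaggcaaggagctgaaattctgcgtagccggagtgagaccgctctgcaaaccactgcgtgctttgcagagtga
SPRY2 (chr13:80341077-80341376, minus strand): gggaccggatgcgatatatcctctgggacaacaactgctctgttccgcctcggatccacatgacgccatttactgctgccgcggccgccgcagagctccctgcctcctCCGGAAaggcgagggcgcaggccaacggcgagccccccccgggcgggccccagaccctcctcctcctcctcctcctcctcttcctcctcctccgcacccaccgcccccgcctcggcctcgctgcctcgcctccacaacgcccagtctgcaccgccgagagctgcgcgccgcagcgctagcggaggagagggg
SPRY4 (chr5:142324198-142324497, minus strand): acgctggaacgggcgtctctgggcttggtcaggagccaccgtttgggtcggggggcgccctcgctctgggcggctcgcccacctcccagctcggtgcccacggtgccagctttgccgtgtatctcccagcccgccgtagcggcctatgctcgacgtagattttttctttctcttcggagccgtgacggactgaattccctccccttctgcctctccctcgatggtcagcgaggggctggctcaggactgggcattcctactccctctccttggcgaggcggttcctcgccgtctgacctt
FGF2 (chr4:122826581-122826880, plus strand): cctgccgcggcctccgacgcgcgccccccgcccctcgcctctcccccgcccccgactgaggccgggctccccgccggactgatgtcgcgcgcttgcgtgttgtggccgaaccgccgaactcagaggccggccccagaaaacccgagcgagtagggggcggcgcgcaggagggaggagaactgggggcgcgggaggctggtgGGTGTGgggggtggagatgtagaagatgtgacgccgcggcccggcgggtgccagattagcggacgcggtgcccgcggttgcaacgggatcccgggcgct

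The table held 9 promoters of 6 members (FGF3, FGF2, SPRY1, SPRY2, SPRY4 and DUSP6). Letters were searched on both strands, and the shorter T-box strings are contained in the longer ones. None of the 9 held AGGTGTGA, which 0.980% of the 35116 promoters in the table held, or GGTGTGA, which 3.45% held. GGTGTG was found in 2 member promoters, against 16.8% of all promoters. In DUSP6 it began 28 bases after the start, and in FGF2 49 bases before it. CCGGAA was found in 2 member promoters, against 17.2% of all. In SPRY2 it began 142 bases before the start, and in SPRY1 67 bases before the other tabled start, which is not printed. These are matches of letters and not measured sites.

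To ask whether BRA was bound near these genes in both progenitors, peaks were counted per window. All 8 windows held R&D Systems peaks in both media, as did 31.5% of tiles as short as the shortest window (104 kb) and 55.5% of tiles as long as the longest (221 kb), laid along all chromosomes with or without genes. The ligand windows held 19 peaks in FLyA and 37 in FLyB, and the feedback windows 25 and 20. This grouping was chosen with earlier results of these data known. FLyB peaks outnumbered FLyA peaks in 4 of the 4 ligand windows, by 2 to 9 peaks, and in none of the 4 feedback windows, where 2 had more FLyA peaks and 2 had equal numbers. Of the 3006 tiles of 106 kb with at least 5 R&D Systems peaks, 49.0% had more FLyB peaks, 38.6% had more FLyA peaks and 12.4% had equal numbers. The FGF19, FGF4 and FGF3 window held 9 of the 18 additional FLyB peaks of the ligand windows, and without it these windows held 12 and 21. In the feedback windows the difference of -5 was -2 without SPRY4 and -1 with 20 kb in place of 50 kb on each side of the genes. With 1 library per medium and antibody, the antibodies are the only pairs of media. Within Santa Cruz the FLyB minus FLyA difference was 2 in the ligand and -1 in the feedback windows, from 7 peaks in all, too few to bear on the direction. An exact sign-flip permutation test over these 2 pairs gave a two-sided p of 0.500 for either group of windows, the smallest it can give. An exact permutation of the 4 lists between the media without pairing could not go below 0.333.

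**Figure D1:**
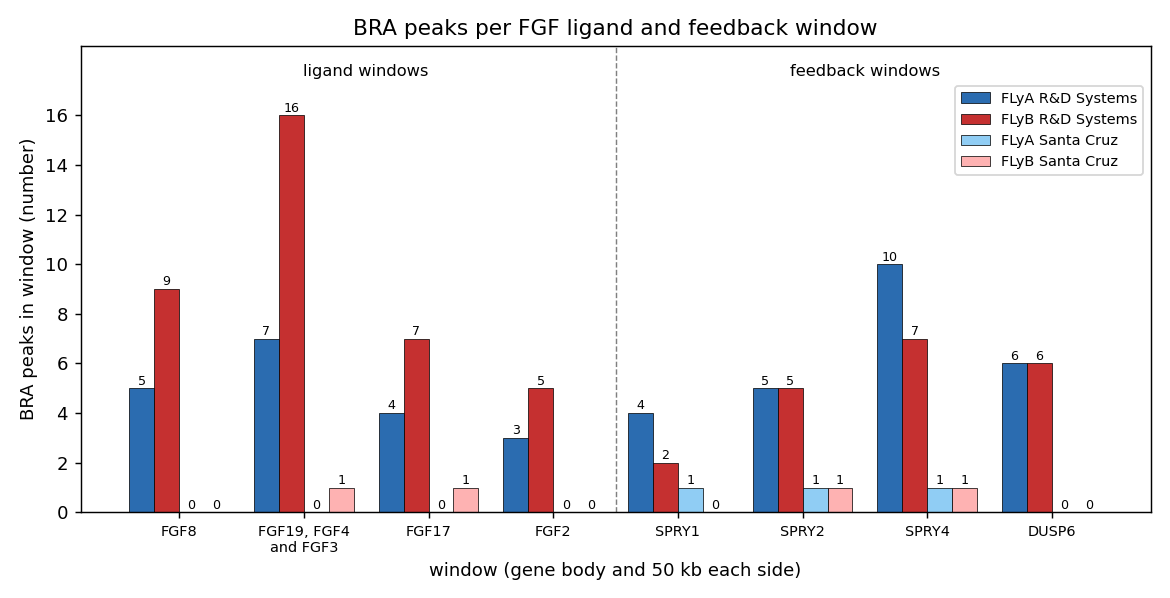
Number of BRA peaks (y axis) in each of the 8 windows (x axis) in the 4 lists, with the number above each bar. The FLyB R&D Systems bar is the tallest in the 4 ligand windows, while in the feedback windows it equals the FLyA bar at SPRY2 and DUSP6 and is lower at SPRY1 and SPRY4, and Santa Cruz bars reach at most 1.

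Per length, the ligand windows held 31.4 FLyA and 61.2 FLyB peaks per Mb, and the feedback windows 58.0 and 46.4. The whole R&D Systems lists held 8.79 and 8.05 peaks per Mb, over the spans that the peaks cover. These averages include long stretches without genes, so windows around genes are not a like-for-like match to them, and the same holds for the tiles used here. Each window's count is set beside those of adjoining tiles of its own length laid along all chromosomes. The share given is of tiles with at least as many peaks, also where the text below reads as many. By this measure the counts of SPRY4 in FLyA and of FGF19, FGF4 and FGF3 in FLyB were the rarest, and those of FGF2 in FLyA and SPRY1 in FLyB were common.

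The next comparison asked which sites were called in 1 medium only, where peaks with at least 1 bp in common counted as the same site. In FLyA, 17 of the 44 member peaks (38.6%, exact 95% interval 24.4 to 54.5%) overlapped no FLyB peak, against 67.0% of the whole FLyA list. In FLyB, 30 of the 57 (52.6%, 39.0 to 66.0%) overlapped no FLyA peak, against 63.9% of the whole list, a value inside the interval. In the ligand windows the FLyB share was 67.6% (50.2 to 82.0%, 25 of 37), or 66.7% without the FGF19, FGF4 and FGF3 window, and in the feedback windows it was 25.0% (8.66 to 49.1%, 5 of 20). The FLyA shares were 36.8% (16.3 to 61.6%) in the ligand and 40.0% (21.1 to 61.3%) in the feedback windows. The media shared 12 sites in the ligand and 15 in the feedback windows, so the FLyB shares restate the 37 and 20 FLyB peaks and are no separate result. These shares are of R&D Systems peaks. With the Santa Cruz lists alone, 3 of 3 FLyA and 4 of 4 FLyB peaks overlapped no peak of the other medium. Over the whole Santa Cruz lists 89.9% and 91.7% did so, inside the exact intervals of the members (29.2 to 100% and 39.8 to 100%). These 3 and 4 peaks are too few to give a direction against the list. Intervals are Clopper-Pearson, cover counting error only and treat neighbouring peaks as independent, which they are not. A peak below the calling threshold leaves no entry, so a site listed for 1 medium may still be occupied in the other.

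**Figure D2:**
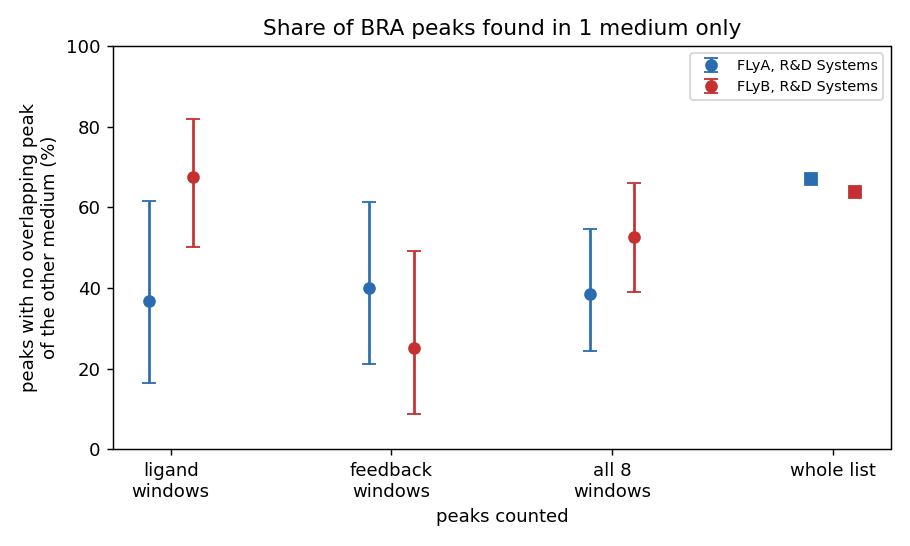
Share of R&D Systems peaks with no overlapping peak of the other medium (y axis, %) in ligand windows, feedback windows, all 8 windows and the whole list (x axis). Points carry exact 95% intervals and squares are whole-list values. FLyB stands at 67.6% in ligand and 25.0% in feedback windows.

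Overlapping peaks of 400 bp have midpoints less than 400 bp apart by construction. The 27 shared pairs lay 2 to 374 bp apart by midpoint, with a median of 54 bp, against 38 bp for the whole FLyA list. Of these pairs, 12 (44.4%) lay within 50 bp, against 60.7% for the list. No interval was computed for this share, so it is not read as different from the list. Peaks without a partner were often near one. Of the 17 FLyA-only member peaks, 70.6% (44.0 to 89.7%) had a FLyB peak with a gap of at most 10 kb, against 24.4% of the FLyA-only peaks of the whole list. Of the 30 FLyB-only member peaks, 53.3% (34.3 to 71.7%) had a FLyA peak in that range, against 31.8%. Windows dense in peaks bring peaks of both media together whatever their sites, and the part of density in these shares was not tested.

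**Figure D3:**
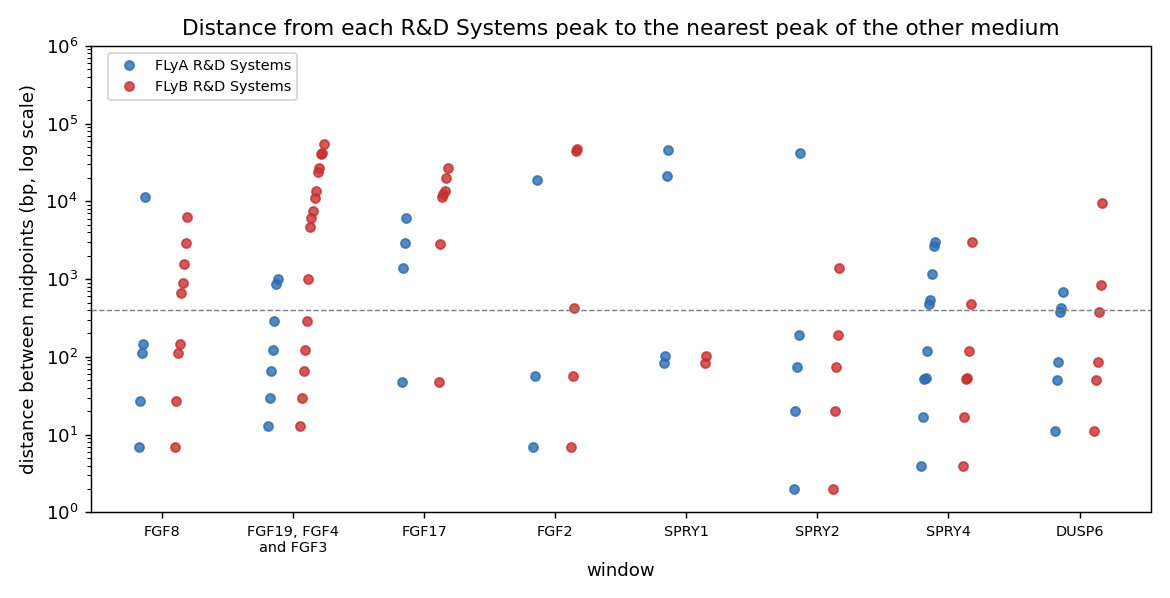
Distance in bp between midpoints (y axis, log scale) from each R&D Systems peak to the nearest peak of the other medium, by window (x axis). Below the dashed line at 400 bp peaks overlap. The FLyB peaks of the FGF19, FGF4 and FGF3 window reach 54.3 kb, and those of SPRY1 all lie below the line.

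Positions are given from the gene start as the window edges place it, which are known to 1 kb. FGF8 encodes a ligand that cells need to leave the primitive streak in the mouse. Its window (chromosome 10, 103.480 to 103.586 Mb) held 5 FLyA and 9 FLyB R&D Systems peaks and none with Santa Cruz. Of tiles of the same length, 2.16% held as many FLyA and 0.263% as many FLyB peaks. Both media shared sites 3.4 kb and 4.9 kb upstream, 42.4 kb upstream and 26.5 kb downstream of the start. Of the sites with a peak of 1 medium, 5 were FLyB-only. They lay 0.5 kb and 2.5 kb upstream (chr10:103536325-103536724 and chr10:103538316-103538715), 2.9 kb downstream of the start within the gene body, and 27.1 and 28.0 kb downstream. The FLyA-only site was 39.4 kb downstream. In FLyA, no peak lay closer to this start than 3.4 kb. The window was built on a gene body of 6 kb, whereas RefSeq on GRCh38 gives FGF8 a length of 10.3 kb, so the gene model differs there, and distances from any other start were not measured. NPM3 is the next gene upstream of FGF8 in RefSeq, and which of them a peak serves is not known.

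FGF19, FGF4 and FGF3 lie in this order on chromosome 11 and are transcribed in the same direction. FGF19 is an endocrine ligand, FGF4 supports early embryo and streak growth, and FGF3 acts in tail and inner ear development. The window (69.463 to 69.684 Mb) held 7 FLyA and 16 FLyB R&D Systems peaks, no FLyA and 1 FLyB Santa Cruz peak. Of tiles of the same length, 3.60% held as many FLyA and 0.173% as many FLyB peaks. All 7 FLyA peaks lay between the end of FGF19 and a point 42.9 kb inside from the FGF3 start. FLyB peaks covered the same stretch and went on past it. Of the FLyB peaks, 5 lay from 1.6 kb downstream to 46.4 kb upstream of the FGF3 start, at chr11:69632177-69632576, chr11:69632789-69633188, chr11:69649954-69650353, chr11:69677441-69677840 and chr11:69680215-69680614. There the nearest FLyA peak was 24.06 to 54.32 kb away, the larger distance belonging to the site 16.2 kb upstream. The remaining 6 FLyB-only sites were spread between the genes, 48.5 to 113.6 kb downstream of the FGF3 start. The site at chr11:69574540-69575004 was called in 3 lists, with R&D Systems in both media and with Santa Cruz in FLyB. Peaks at FGF19 and FGF4 could not be divided between these genes, since the window gives neither of their starts.

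FGF17 belongs to the same subfamily as FGF8. Its window on chromosome 8 (21.850 to 21.957 Mb) held 4 FLyA and 7 FLyB R&D Systems peaks, no FLyA and 1 FLyB Santa Cruz peak. Of tiles of the same length, 4.79% held as many FLyA and 0.942% as many FLyB peaks. The media shared 1 of its 10 sites, chr8:21897224-21897671, 2.6 kb upstream, and the Santa Cruz FLyB peak fell on it. The 3 FLyA-only peaks stood 5.4 kb and 1.1 kb upstream and 7.7 kb downstream of the start. The 6 FLyB-only peaks reached further, from 32.2 kb upstream to 27.5 kb downstream, and 1 lay in the gene body. NPM2 and DMTN flank FGF17 in RefSeq, and the outer peaks lie towards them.

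FGF2 encodes the ligand that was also added to both media. Its window (chromosome 4, 123.698 to 123.869 Mb) held 3 FLyA and 5 FLyB R&D Systems peaks and no Santa Cruz peak, the fewest for its length among the ligand windows. Tiles of its length held as many FLyA peaks in 21.5% and as many FLyB peaks in 6.91% of cases. The media shared a site 1.7 kb downstream of the start (chr4:123749450-123749906) and a site 77.4 kb downstream, past the end of the gene body. A further FLyB peak stood 1.2 kb downstream of the start. The other FLyB-only peaks were 43.0 and 46.4 kb upstream, and the FLyA-only peak was 96.1 kb downstream.

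**Figure D4:**
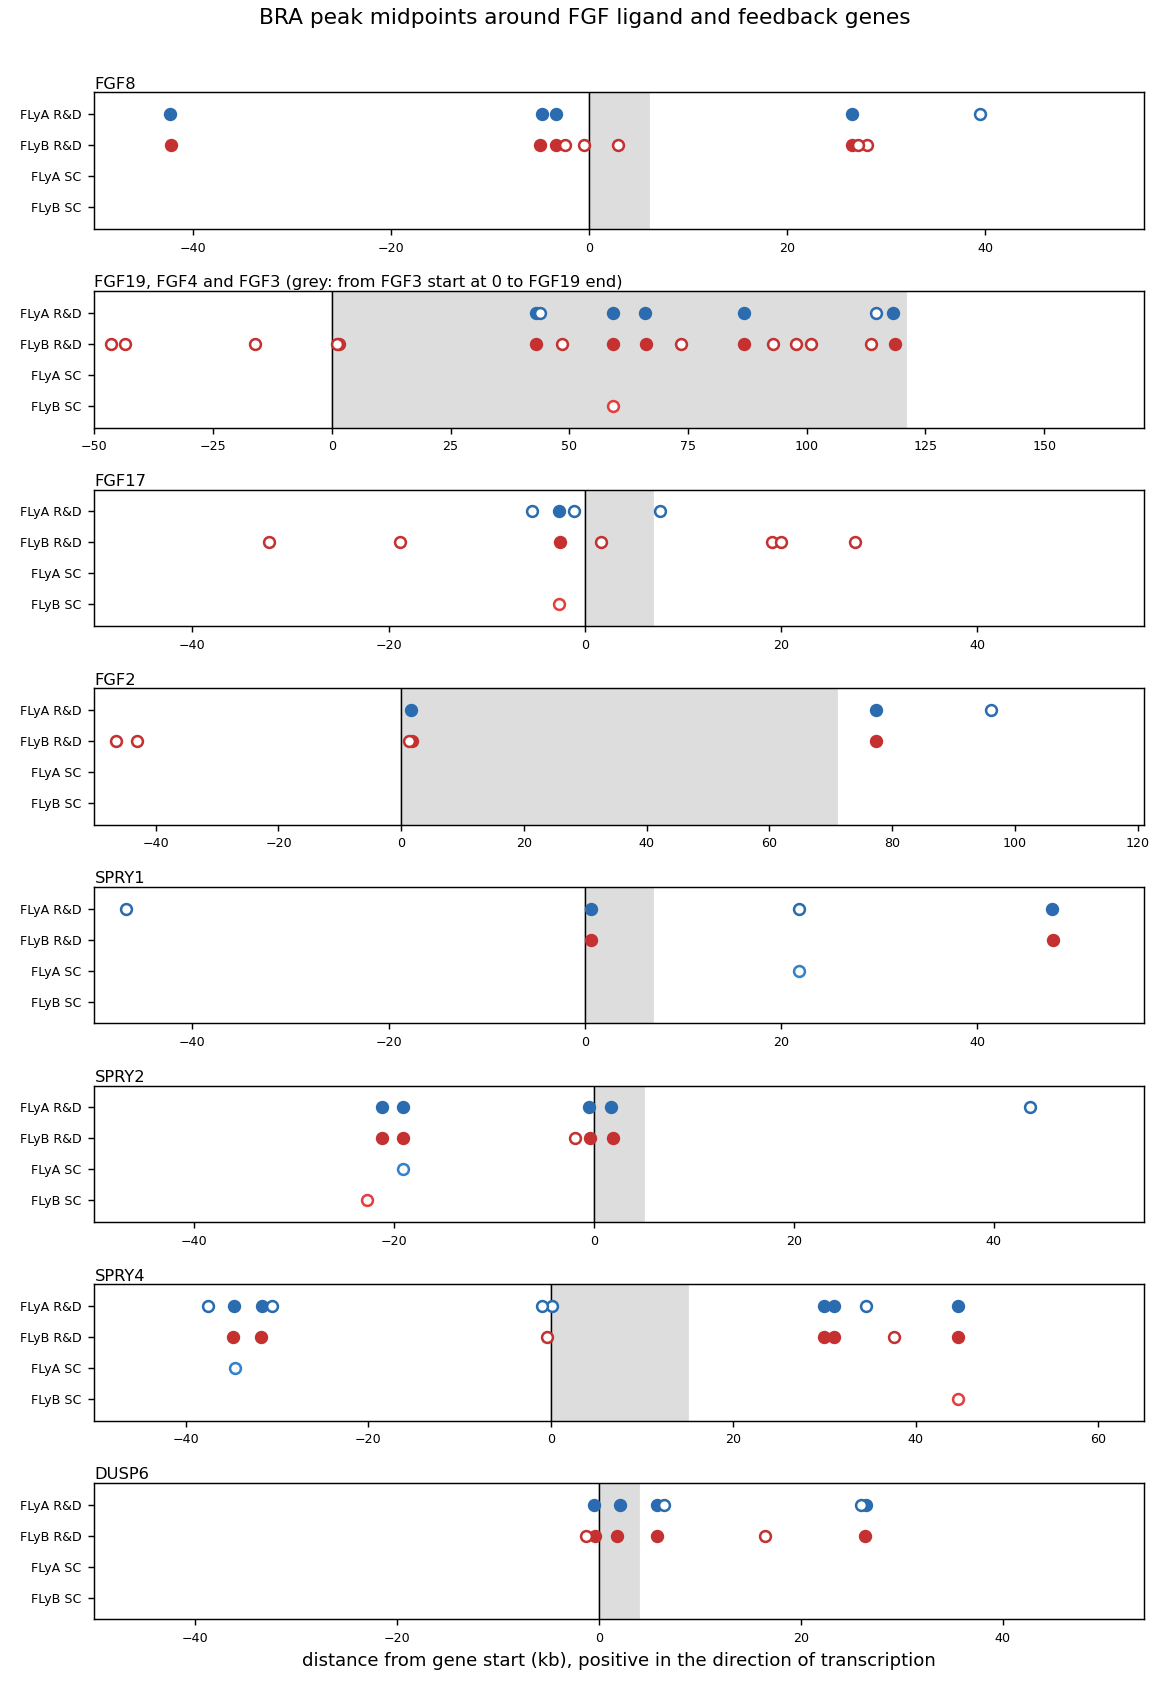
Midpoints of BRA peaks against distance from the gene start (x axis, kb, positive in the direction of transcription) in the 4 lists (rows) of each of the 8 windows. Filled points overlap a peak of the other medium with the same antibody, open points do not, and grey marks the gene body. Feedback genes carry peaks of both media at the start, and FGF17 and FGF2 carry both within 1.7 kb of it. The FGF3 start has FLyB peaks only.

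Among the feedback genes, SPRY1 carried the fewest peaks. Its window (chromosome 4, 124.268 to 124.375 Mb) held 4 FLyA and 2 FLyB R&D Systems peaks, with 1 FLyA and no FLyB Santa Cruz peak. Tiles of its length held as many FLyA peaks in 4.79% and as many FLyB peaks in 20.3% of cases. Both FLyB peaks had a FLyA partner, at the start (chr4:124318356-124318839, 0.6 kb into the gene) and 47.6 kb downstream. The 2 FLyA-only sites were 46.8 kb upstream and 21.8 kb downstream. The latter, chr4:124339623-124340044, was called in FLyA with both antibodies and in FLyB with neither. It was the only member site found in 1 medium with both antibodies. The share of such sites over the whole series was not computed, so this count cannot be called few or many.

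SPRY2 held 5 R&D Systems peaks in each medium and 1 Santa Cruz peak in each (chromosome 13, 80.860 to 80.965 Mb). Tiles of its length held as many FLyA peaks in 2.10% and as many FLyB peaks in 2.93% of cases. The media shared 4 sites, at 0.5 kb upstream (chr13:80915231-80915704), 1.8 kb downstream, and 19.1 and 21.2 kb upstream of the start. At the last of these the midpoints were 2 bp apart. The Santa Cruz FLyA peak fell on the site at 19.1 kb. The Santa Cruz FLyB peak, 22.7 kb upstream, overlapped no R&D Systems peak of either medium. The FLyA-only peak lay 43.6 kb downstream and the FLyB-only peak 1.9 kb upstream.

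SPRY4 had the most peaks of the feedback genes, 10 in FLyA and 7 in FLyB with R&D Systems and 1 in each with Santa Cruz (chromosome 5, 141.640 to 141.755 Mb). As many FLyA peaks were found in 0.0704% and as many FLyB peaks in 1.12% of tiles of its length. The media shared 5 sites, of which 3 were 29.9 to 44.6 kb downstream and 2 were 31.7 and 34.7 kb upstream of the start. At the start itself the media alternated. FLyA peaks lay 0.1 kb downstream and 0.9 kb upstream (chr5:141704679-141705078 and chr5:141705691-141706090), and a FLyB peak lay between them, 0.4 kb upstream (chr5:141705155-141705554). These neighbours did not overlap, with midpoints 0.48 and 0.54 kb apart, so they count as 1-medium sites by the overlap rule although they lie side by side. The Santa Cruz FLyA peak fell on the shared site at 34.7 kb upstream, and the Santa Cruz FLyB peak on the shared site at 44.6 kb downstream.

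DUSP6 held 6 R&D Systems peaks in each medium and none with Santa Cruz (chromosome 12, 89.692 to 89.796 Mb). As many FLyA peaks were found in 0.965% and as many FLyB peaks in 1.49% of tiles of its length. Its peaks ran from the start downstream, and none lay further upstream than 1.3 kb. The media shared sites 0.4 kb upstream (chr12:89746203-89746652), 1.9 kb downstream in the gene body, and 5.8 and 26.4 kb downstream of the start. The FLyB-only sites were 1.3 kb upstream and 16.5 kb downstream, and the FLyA-only sites 6.4 and 26.0 kb downstream, each within 0.68 kb of a FLyB peak by midpoint.

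Compared at the gene start, the nearest R&D Systems peak of the feedback genes was 0.1 to 0.6 kb away in FLyA and 0.4 to 0.6 kb in FLyB. At the ligand genes with a known start, the FLyA distance was 3.4 kb for FGF8, 42.9 kb for FGF3, 1.1 kb for FGF17 and 1.6 kb for FGF2. The FLyB distance was 0.5 kb for FGF8, 1.0 kb for FGF3, 1.7 kb for FGF17 and 1.2 kb for FGF2. The edges are known to 1 kb only, so the order of the feedback genes, FGF17 and FGF2 is not resolved in either medium, nor is that of FGF8 and FGF3 among them in FLyB. FGF3 stood apart in FLyA, and FGF8 did so only for the start of the 6 kb gene body. The gene bodies of FGF17, at 7 kb in the window and 9.1 kb in RefSeq, and of DUSP6, at 4 kb and 5.3 kb, also differ, and distances from other starts of these genes were not measured. FGF19 and FGF4 are missing from this comparison.

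The antibodies were compared at the 7 Santa Cruz peaks in these windows. Of the 3 FLyA peaks, 3 overlapped an R&D Systems FLyA peak (exact interval 29.2 to 100%), against 31.9% of the whole Santa Cruz FLyA list. Of the 4 FLyB peaks, 3 did so (75.0%, 19.4 to 99.4%), against 79.0%. Tested against the R&D Systems list of the other medium, 2 of the 3 FLyA and 3 of the 4 FLyB peaks overlapped, where the whole Santa Cruz lists had 25.2% and 43.1%. Santa Cruz peaks of the media overlapped each other at none of the 75 member sites, where 89.9% of the whole Santa Cruz FLyA list and 91.7% of the FLyB list had no overlapping peak of the other medium, so this count is near the rate of the lists. No site was called in all 4 lists, against 0.525% of the 43081 sites of the series, and 5 of the 75 were called in 3, against 3.16%. Only SPRY2 and SPRY4 had Santa Cruz peaks in both media, and FGF8, FGF2 and DUSP6 had none in either. The whole Santa Cruz lists held 2436 FLyA and 3007 FLyB peaks. The share of tiles with such peaks was not computed, so these windows are not set apart by this. In turn, Santa Cruz also called 3 of the 44 R&D Systems FLyA members and 3 of the 57 FLyB members, against 3.02% and 10.0% over the lists. The Santa Cruz ligand peaks were 0 in FLyA and 2 in FLyB.

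The number of members depended on the width of the windows. With 20 kb each side, R&D Systems peaks numbered 29 in FLyA and 40 in FLyB, and with 100 kb 52 and 71. At the 50 kb used, few peaks lay close to an edge. Within 5 kb of an edge, 3 peaks lay inside and 1 outside. The nearest inside was a FLyA peak at SPRY1, 3.2 kb from the edge, and the 1 outside was a Santa Cruz FLyA peak at SPRY4, 2.9 kb beyond it.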

How the data were processed

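BRA ChIP-seq peak lists of 4 libraries were analysed, 1 per medium and antibody, as the labels group them. The authors called peaks with MACS, and the deposited lists used here hold coordinates with no score, so the depth behind each peak is unknown and no peak can be ranked. The submitters' processing notes name Bowtie 0.12.7 and hg19. The track lines of the Santa Cruz lists name 1e-12, and the R&D Systems threshold is not given in the sources used here.

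Midpoints were assigned to the windows of the rule, and peaks with at least 1 bp in common were counted as shared, with Python 3.11.15 and SciPy 1.17.1. Overlap counts were checked with bedtools 2.31.1, and the overlap function was tested on simulated data. Figures used matplotlib 3.10.9. Gene starts were taken from the window edges, with strands from RefSeq or general knowledge. Tiles ran between the first and last peak of each chromosome. All 10 members were named. The members, windows, ligand and feedback grouping and distances were chosen with earlier results of these data known. T-box letters in peaks and the other FGF pathway genes set out in the design were not run, because no genome or annotation of hg19 was used here. Alternatives covered overlap, antibody, window width, membership and pairing by antibody.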

Additional observations from a re-analysis of the deposited data

How the results depend on the processing

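Of 46 alternatives over 8 results, 34 left the value in its 95% interval, or a number within 1.5 times. None changed the sign of the ligand or feedback difference. Some of the 34 say little. Counting any overlap with the window, or merging overlapping peaks of a list, returned the same counts. The Santa Cruz shares were judged against wide intervals from 3 and 4 peaks (29.2 to 100% and 19.4 to 99.4%). The ligand and feedback differences were not set out in the design, and all their alternatives were chosen after seeing the data. The Santa Cruz lists alone held 3 FLyA and 4 FLyB peaks in place of 44 and 57. All of these peaks were without a peak of the other medium, against 89.9% and 91.7% of the whole Santa Cruz lists. The exact intervals (29.2 to 100% and 39.8 to 100%) hold the list values, so these shares give no direction against the list. The Santa Cruz lists gave an FLyB minus FLyA difference of 2 at the ligand and -1 at the feedback windows. Among the FLyB R&D Systems peaks also found with Santa Cruz, 0 of 3 were in 1 medium only. With 20 kb each side, the FLyA peaks numbered 29 and the feedback difference was -1 in place of -5. Of the Santa Cruz FLyB peaks, 2 of 2 lay on R&D Systems peaks with 20 kb (15.8 to 100%). With 100 kb, 5 of 6 did so (35.9 to 99.6%). Both intervals hold the 79.0% of the list, so these few peaks give no direction against it. The ligand difference of 18 was 9 without the FGF19, FGF4 and FGF3 window, and the feedback difference was -2 without SPRY4. The cause of these drops was not tested. Paired by antibody, an alternative added after seeing the data, the comparison of the media gave an exact two-sided permutation p of 0.500 in both groups of windows, the smallest that 2 pairs allow. The T-box alternatives were not run.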
